A study of Mus musculus with 8 samples.

Results

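Mitochondrial ribosomal proteins build the ribosome inside mitochondria, and the transcripts measured here are those of the 77 protein-coding genes whose symbol is Mrpl or Mrps, a number and at most 1 further letter. They were found among the 19826 genes of the table, and 48 carry a large-subunit symbol (Mrpl) and 29 a small-subunit symbol (Mrps). A further gene of this pattern in the GENCODE M21 annotation, Mrpl53, was not analysed here. The cells were regulatory T cells (Treg), the Foxp3-expressing CD4 T cells that hold immune responses in check, sorted as CD4+ YFP+ cells from untreated C57BL/6 mice, with spleen and peripheral lymph nodes as the source. The 4 libraries labelled Pdpk1 KO came from Foxp3 YFP-Cre/+ Pdpk1 FL/FL mice, and the 4 labelled WT came from Foxp3 YFP-Cre/+ Pdpk1 +/+ mice, so both groups carried the same Cre allele. Cre is made where the Foxp3 allele is active, and with 1 such allele an animal also keeps Treg without Cre, which the YFP sort leaves out. The age of the mice was not given in the sources used here, nor was the number of mice behind a library, so each p-value reflects the spread among libraries, which may be technical. Pdpk1 encodes PDK1, the kinase that activates AKT and related kinases downstream of PI3K.

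The mitochondrial ribosome translates the few proteins encoded by mitochondrial DNA, all of them core subunits of the respiratory chain and ATP synthase. Its RNA is made inside the organelle, whereas every one of its proteins is encoded in the nucleus, made on cytosolic ribosomes and imported. Many of these proteins descend from bacterial ribosomal proteins, and the others are particular to mitochondria. T cells need mitochondrial translation for respiration, and in Treg respiration is linked to suppressive function.

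Depth lay between 17448095 and 26299577 recovered reads per library, and every one of the 77 genes had at least 110 reads in each library. Pdpk1 was summed over the whole gene, so it does not check the deletion, and which exons loxP flanks is not given in the sources used here. Pdpk1 had 2505, 1900, 1872 and 1656 normalized counts in Pdpk1 KO libraries, against 2600, 2374, 1995 and 1923 in WT libraries, and the groups overlapped (log2 difference -0.17, exact two-sided permutation p = 0.286, with 0.0286 the smallest p that the 70 assignments allow). Foxp3 averaged 5355 ± 743 normalized counts in Pdpk1 KO libraries and 5086 ± 740 in WT libraries (SD, n = 4 each, exact two-sided permutation p = 0.6), and the summed T cell and Treg markers lay between 54351 and 59663 normalized counts in Pdpk1 KO libraries and between 56729 and 59090 in WT libraries. That sum holds opposite changes, since of its 6 genes Il2ra was higher (log2 difference 0.63, limma adjusted p = 0.00114), Ikzf2 was lower (log2 difference -1.13, limma adjusted p = 4.45e-06) and 4 did not pass the threshold. Macrophage markers differed between the groups. Of 19 such markers 15 were tested. Of those, 7 were higher and 1 was lower (Axl), against 4.41% higher and 5.06% lower over all genes tested. The tested markers had a median log2 difference of 2.11, and 14 of the 15 lay above 0. The sum of the markers lay between 1949 and 5827 normalized counts in Pdpk1 KO libraries and between 1510 and 2878 in WT libraries. This sum holds opposite changes too. Axl alone had 404 to 796 normalized counts in Pdpk1 KO libraries and 941 to 1296 in WT libraries. Fcgr1, Marco, Mertk, Spic, Timd4 and Vsig4 were at 0 in at least 1 library, and Vsig4 in 3 of 4 of each genotype. Summed B cell markers lay between 156 and 305 in Pdpk1 KO libraries and between 354 and 528 in WT libraries. In bulk RNA, fewer cells of a type and less RNA per cell cannot be told apart.

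The transcripts of the mitochondrial ribosome differed little between the 2 genotypes. Of the 77 genes, all of which passed the filter on low values, 1 was higher in Pdpk1 KO (Mrps5), 0 were lower and 76 did not pass the threshold (limma, Benjamini-Hochberg adjusted over all 13847 genes tested, adjusted p under 0.05). Across all genes tested, 4.41% were higher and 5.06% lower (9.47% in either direction), so the share of these genes called higher, 1.30%, lay below that background. At an unadjusted p under 0.05, limma passed 10 of the 77, or 13.0%, against 23% of all genes tested, and of those 10 Mrpl18 alone was lower. All 4 Pdpk1 KO libraries exceeded all 4 WT libraries for 4 genes (Mrps5, Mrps18b, Mrpl48 and Mrpl24), or 5.19%, against 7.06% of all genes. The reverse held for 1 gene (Mrpl18), or 1.30%, against 8.24% of all genes. The number called higher was 1 with edgeR (background 4.33%), 2 with DESeq2 (background 6.39%) and 4 with a replicate block (background 8.98%), each of them at an adjusted p under 0.05.

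The log2 differences were small in both directions. They were above 0 for 43 genes and below 0 for 34. Their median was 0.042, with quartiles of -0.082 and 0.17 and a range of -0.33 to 0.55, while over all genes tested the median was -0.0065 and the quartiles were -0.26 and 0.20. The standard error of a single gene's log2 difference had a median of 0.148, against 0.175 over all genes tested. The 77 genes also stood higher in level. Their mean normalized counts had a median of 663 and a minimum of 206, against 419 and 6.25 over all genes tested. The part of level in the spread and in the intervals was not tested. The 95% interval lay wholly inside ±0.5, a 1.41-fold change either way, for 49 of the 77 (63.6%), against 37.2% of all genes tested. It lay inside ±1 for 76 of 77, the exception being Mrps18b. A missed threshold does not show equality, but differences beyond 2-fold lay outside the interval of every gene except Mrps18b.

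**Figure D1:**
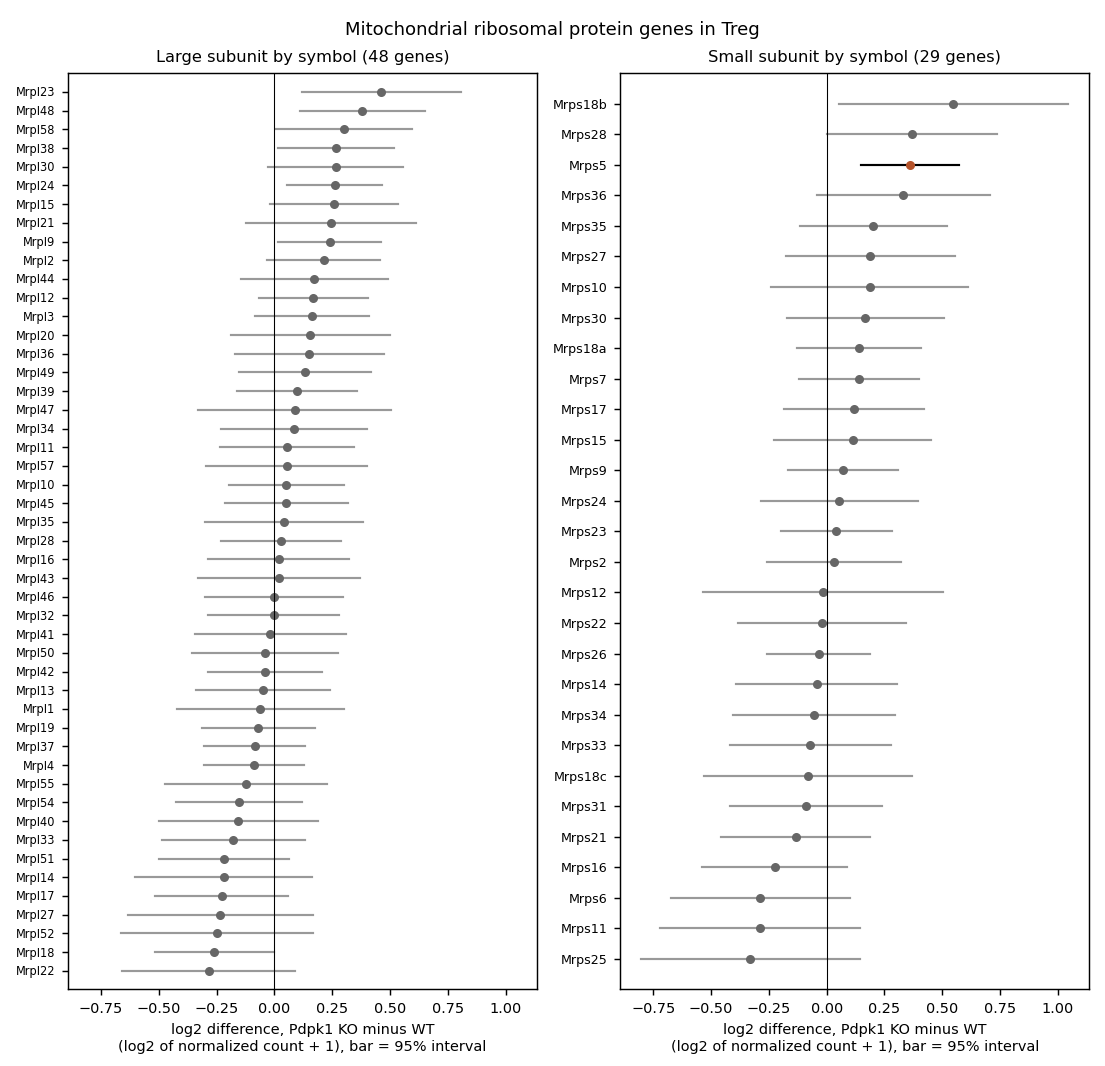
Log2 difference (Pdpk1 KO minus WT, log2 of normalized count + 1) of each mitochondrial ribosomal protein gene, with its 95% interval from limma as a bar, for the 48 large-subunit genes (left) and 29 small-subunit genes (right). Mrps5, in orange, is the gene past the threshold, and the points run between -0.33 for Mrps25 and 0.55 for Mrps18b.

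Much of the variation among these genes ran between libraries of the same genotype. For each gene, the deviation from its own mean over the 8 libraries was taken on the log2 scale, and the median over the 77 genes was -0.13, 0.095, 0.0030 and 0.15 in Pdpk1 KO libraries 1 to 4, against -0.21, -0.030, 0.086 and 0.018 in WT libraries 1 to 4. Library 1 was thus the lowest of its group in both genotypes, while the same median over all genes tested lay between 0.010 and 0.025 in every library. Other measures were also lowest in library 1 of each genotype. The share of reads from cytosolic ribosomal protein genes was 11.8% in Pdpk1 KO library 1, against 15.2% to 16.1% in the other 3, and 9.10% in WT library 1, against 11.4% to 13.0% in the other 3. The mean log2 level of the tested macrophage markers was 5.95 in Pdpk1 KO library 1, against 6.39 to 7.998 in the other 3, and 3.86 in WT library 1, against 4.77 to 6.74 in the other 3. The part of the cytosolic share in the result was not tested. Fits with the macrophage marker mean as a covariate, or without the libraries highest in it, are given further below. Pdpk1 KO library 1 held the lowest value of its group for 52 of the 77 genes, and WT library 1 for 42 of 77. In a principal component analysis of the 77 genes, the first component held 42.7% of their variance, gave 73 of the 77 genes the same sign and placed these same libraries at its low end. The second component, with 20.1%, placed the 4 Pdpk1 KO libraries on one side and the 4 WT libraries on the other. The difference between genotype means made up 19.9% of the genes' variance. Libraries numbered alike were not shown to be paired.

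Summed over the 77 genes, normalized counts were 48474, 58486, 54528 and 58955 in Pdpk1 KO libraries, against 47094, 50991, 58123 and 55128 in WT libraries. The groups overlapped, and the means of 55111 ± 4849 in Pdpk1 KO libraries and 52834 ± 4816 in WT libraries (SD, n = 4 each) differed by less than the spread within either group. As a share of all reads, the genes made up 0.246 ± 0.0148% in Pdpk1 KO libraries and 0.254 ± 0.0156% in WT libraries (SD, n = 4 each).

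The large and the small subunit had nearly the same median. The median log2 difference was 0.036 for the 48 large-subunit genes (0 higher, 0 lower, 27 above 0) and 0.042 for the 29 small-subunit genes (1 higher, 0 lower, 16 above 0), and the large-subunit median minus the small-subunit median was -0.0065. The interval lay inside ±0.5 for 34 of 48 large-subunit genes and 15 of 29 small-subunit genes. The ratio of summed large-subunit to summed small-subunit counts was 2.11, 2.11, 2.18 and 2.12 in Pdpk1 KO libraries, against 2.18, 2.07, 2.09 and 2.03 in WT libraries. WT library 1 lay above the 4 Pdpk1 KO values, so the groups overlapped, with means of 2.13 ± 0.0330 in Pdpk1 KO libraries and 2.09 ± 0.0643 in WT libraries (SD, n = 4 each).

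**Figure D2:**
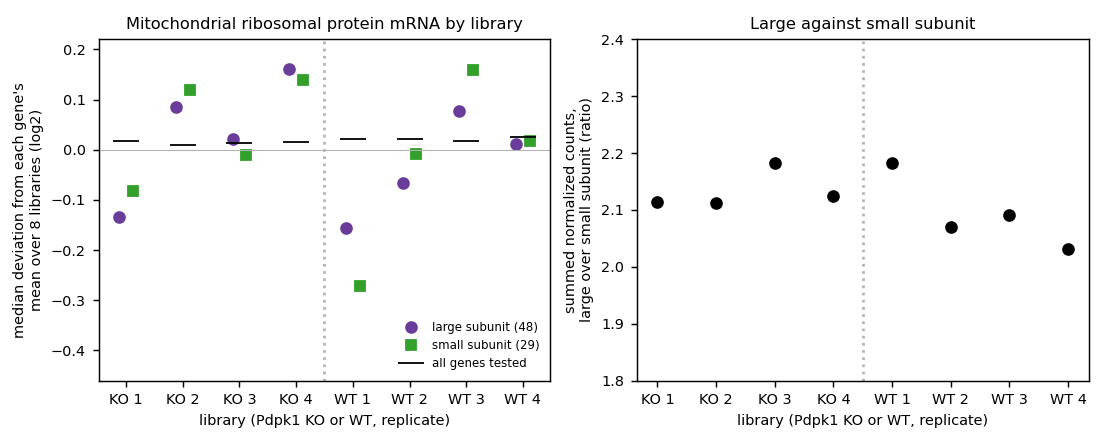
Left, median log2 deviation of the large-subunit genes (circles), small-subunit genes (squares) and all genes tested (dashes) from each gene's mean over 8 libraries, per library. Right, ratio of summed normalized counts of large-subunit over small-subunit genes, between 2.03 and 2.18, on an axis that does not start at 0, while library 1 of each genotype is the lowest of its group on the left.

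Symbols do not follow the assembled particle exactly. In structures of the mammalian mitochondrial ribosome (human and pig), the products of Mrps30 and Mrps18a lie in the large subunit, and the product of Mrps36 is now known as a part of the 2-oxoglutarate dehydrogenase complex. Sorted in that way, the median log2 difference was 0.047 for 50 large-subunit genes and 0.0075 for 26 small-subunit genes. Divided by whether the protein has a counterpart at its place in the bacterial ribosome, it was 0.052 for 29 large-subunit genes with such a counterpart, 0.020 for 21 large-subunit genes without one, 0.043 for 16 small-subunit genes with one and -0.027 for 10 small-subunit genes without one. Mrps18a and Mrps18b, relatives of bacterial S18 whose products lie elsewhere in the particle, were counted as without. Mrps5 belonged to the small-subunit genes with a counterpart, and the other 3 classes held 0 genes past the threshold.

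The mitochondrial set differed in its values from the cytosolic ribosome, whose proteins have Rpl and Rps symbols. Of 75 tested cytosolic ribosomal protein genes, 19 were higher (25.3%, against 4.41% of all genes tested) and 0 were lower. All 75 had a log2 difference above 0, with a median of 0.46, against 0.042 for the mitochondrial set. Cytosolic ribosomal protein genes took 14.6 ± 1.89% of reads in Pdpk1 KO libraries and 11.4 ± 1.67% in WT libraries (SD, n = 4 each). Reads of these genes can be shared with many pseudogene copies, and how such reads were counted was not given in the sources used here.

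**Figure D3:**
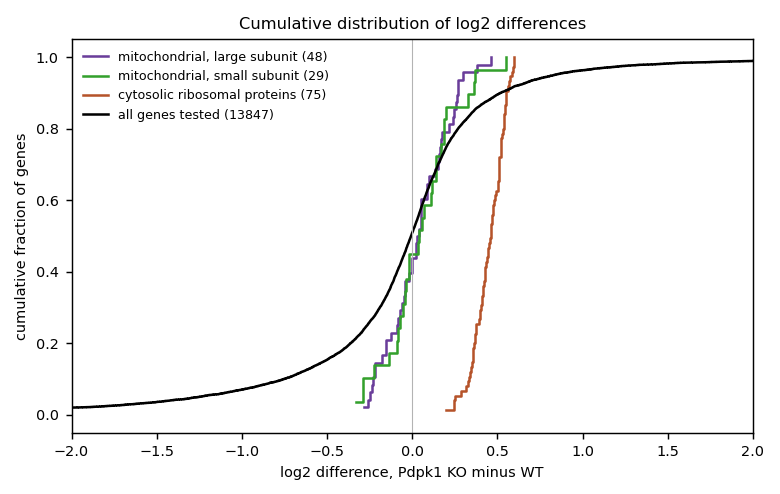
Cumulative fraction of genes (vertical axis) at or below each log2 difference, Pdpk1 KO minus WT (horizontal axis, shown between -2 and 2), for large-subunit and small-subunit mitochondrial ribosomal protein genes, cytosolic ribosomal protein genes and all genes tested. The curves of the mitochondrial subunits overlie each other, with medians of 0.036 and 0.042, and the cytosolic curve has its median at 0.46.

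In the small subunit, Mrps5 (ENSMUSG00000027374, chr2:127587222-127606829, plus strand, GRCm38) encodes the relative of bacterial protein S5, which in bacteria lies along the path of the mRNA and bears on the accuracy of decoding. Mrps5 had 1176, 1359, 1236 and 1231 normalized counts in Pdpk1 KO libraries, against 965, 904, 991 and 1035 in WT libraries. Every Pdpk1 KO library lay above every WT library. The means were 1250 ± 77.2 in Pdpk1 KO libraries and 974 ± 55.1 in WT libraries (SD, n = 4 each), and the log2 difference was 0.36 ± 0.10 (SE; 95% interval 0.147 to 0.572; limma adjusted p = 0.0329). The call ended when any single library other than Pdpk1 KO library 1 was left out (limma adjusted p between 0.0528 and 0.0983). With the mean of the macrophage markers as a covariate the log2 difference of Mrps5 was 0.35 (limma adjusted p = 0.248), and without the 3 libraries highest in those markers (Pdpk1 KO libraries 2 and 3 and WT library 2) it was 0.27 (limma adjusted p = 0.421).

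The Mrps18 genes are 3 paralogs that descend from bacterial S18, and their products take different places in the mammalian ribosome. Mrps18b (ENSMUSG00000024436, chr17:35910379-35916389, minus strand) had 239, 283, 221 and 224 normalized counts in Pdpk1 KO libraries, against 124, 219, 124 and 216 in WT libraries. The groups did not overlap, but the highest WT library was within 3 counts of the lowest Pdpk1 KO library, and the WT values fell into a low and a high pair. Its log2 difference, 0.55 ± 0.23 (SE; 95% interval 0.052 to 1.044), was the largest of the 77 and did not pass the threshold (limma adjusted p = 0.168). Mrps18a, whose product lies in the large subunit, averaged 602 ± 56.3 in Pdpk1 KO libraries and 545 ± 44.8 in WT libraries (SD, n = 4 each; log2 difference 0.14, limma adjusted p = 0.564). Mrps18c, the small-subunit form closest to the bacterial protein, had a log2 difference of -0.082 (limma adjusted p = 0.868), and its sign turned without WT library 3 and with quantile normalization.

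Among other small-subunit genes, Mrps28 had 302, 377, 375 and 376 normalized counts in Pdpk1 KO libraries, against 233, 242, 350 and 291 in WT libraries, and did not pass the threshold (log2 difference 0.37 ± 0.17, SE; limma adjusted p = 0.215). Pdpk1 KO library 1 lay among the WT values there. Mrps36, the gene whose product belongs to the 2-oxoglutarate dehydrogenase complex, had a log2 difference of 0.33 ± 0.18 (SE; limma adjusted p = 0.288). Mrps12 encodes the protein at the decoding centre. It had 354, 812, 605 and 580 normalized counts in Pdpk1 KO libraries, against 360, 580, 733 and 691 in WT libraries. Library 1 was the lowest of its group in both genotypes by more than 200 counts, and the log2 difference was -0.016 ± 0.24 (SE; limma adjusted p = 0.979), with a sign that turned under quantile normalization and without Pdpk1 KO library 1, WT library 3 or WT library 4.

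At the low end of the small subunit, Mrps25 (chr6:92169525-92184033, minus strand) had 215, 357, 285 and 361 normalized counts in Pdpk1 KO libraries, against 275, 533, 419 and 322 in WT libraries. The groups overlapped (log2 difference -0.33 ± 0.22, SE; 95% interval -0.801 to 0.142; limma adjusted p = 0.417). Exons of the coding gene Nr2c2 on the opposite strand cover 69.8% of its exon bases, so reads of the 2 genes cannot be told apart without a stated strand. Overlap of this kind touched 22 of the 77 genes and exceeded 30% of exon bases for Mrps25, Mrps34, Mrpl19 and Mrpl43. Mutations of MRPS16 and MRPS22 cause combined respiratory chain deficiency in humans. Their mouse counterparts had log2 differences of -0.23 (Mrps16, limma adjusted p = 0.399) and -0.020 (Mrps22, limma adjusted p = 0.961).

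In the large subunit, the genes of the polypeptide exit tunnel had mixed signs. Mrpl23 (ENSMUSG00000037772, chr7:142532686-142540747, plus strand), whose product stands at the tunnel exit, had 957, 1273, 1254 and 1439 normalized counts in Pdpk1 KO libraries, against 631, 942, 1056 and 971 in WT libraries. Library 1 was again the lowest of its group in both genotypes, and its Pdpk1 KO value lay below 2 WT values. The log2 difference was 0.46 ± 0.16 (SE; 95% interval 0.119 to 0.805; limma adjusted p = 0.0899), and it was 0.58 and passed the threshold without Pdpk1 KO library 1 (limma adjusted p = 0.0291). The pseudogene Mrpl23-ps1 had a log2 difference of 0.36, and how reads shared with it were counted was not given in the sources used here. Mrpl24 had 1555, 1806, 1779 and 1813 normalized counts in Pdpk1 KO libraries, against 1319, 1468, 1539 and 1472 in WT libraries, a gap without overlap but narrow at library 1 of Pdpk1 KO (log2 difference 0.26 ± 0.10, SE; limma adjusted p = 0.11). Mrpl22, which lines the tunnel, had a log2 difference of -0.28 ± 0.18 (SE; limma adjusted p = 0.371), and Mrpl45, which tethers the ribosome to the inner membrane in mammals, one of 0.052 (limma adjusted p = 0.859).

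**Figure D4:**
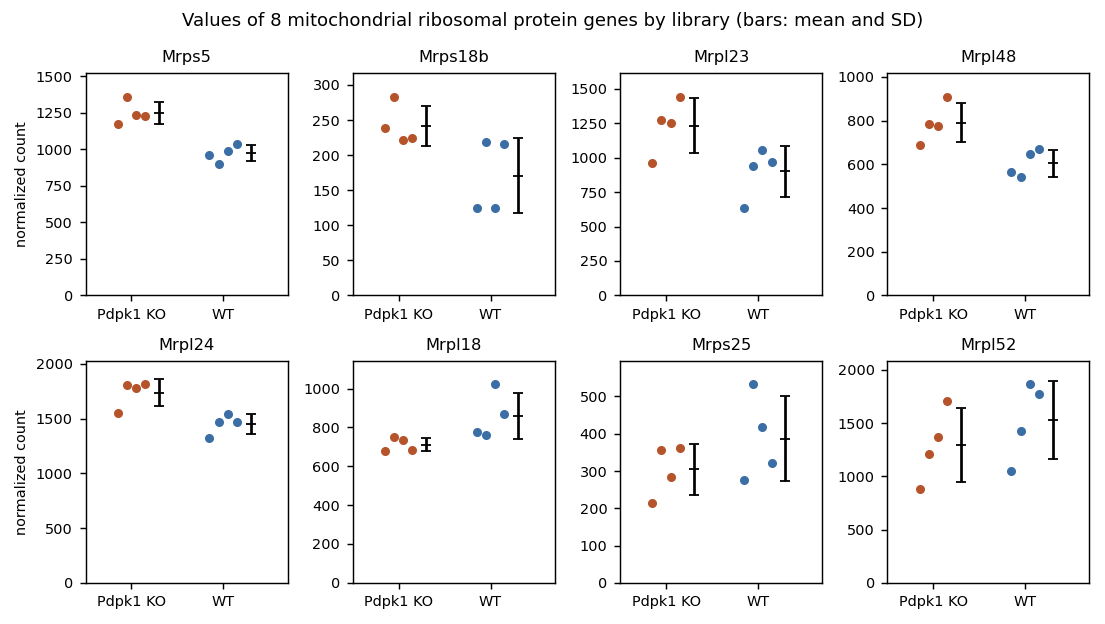
Normalized counts of 8 mitochondrial ribosomal protein genes in each library (points, libraries 1 to 4 left to right within a genotype), with the mean and SD of the 4 libraries as bars. The genotypes do not overlap for Mrps5, Mrps18b, Mrpl48, Mrpl24 and Mrpl18 and overlap for Mrpl23, Mrps25 and Mrpl52, and Mrps5 passed the threshold.

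The central protuberance is the crest of the large subunit that faces the small subunit. The 2 of its genes described here had log2 differences of opposite sign and do not stand for the rest of the crest. Mrpl48 (ENSMUSG00000030706, chr7:100545751-100608301, minus strand) had 690, 786, 777 and 908 normalized counts in Pdpk1 KO libraries, against 565, 543, 645 and 671 in WT libraries. The groups did not overlap, and the log2 difference was 0.38 ± 0.13 (SE; 95% interval 0.112 to 0.649; limma adjusted p = 0.0739). DESeq2 on the recovered reads called it (adjusted p = 0.044), as did limma without Pdpk1 KO library 1 (adjusted p = 0.0488). Mrpl48 also has a pseudogene copy in the annotation, with which reads may be shared. Mrpl18 (ENSMUSG00000057388, chr17:12911349-12916345, minus strand) had 681, 748, 735 and 683 normalized counts in Pdpk1 KO libraries, against 778, 763, 1022 and 868 in WT libraries. Every Pdpk1 KO value lay below every WT value (log2 difference -0.26 ± 0.12, SE; limma adjusted p = 0.21).

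The stalk, which recruits translation factors, holds the products of Mrpl10, Mrpl11 and Mrpl12. Mrpl12 averaged 1375 ± 127 normalized counts in Pdpk1 KO libraries and 1224 ± 130 in WT libraries (SD, n = 4 each; log2 difference 0.17, limma adjusted p = 0.405). Mrpl10 had a log2 difference of 0.052 (limma adjusted p = 0.847) and Mrpl11 one of 0.054 (limma adjusted p = 0.865). Mrpl58 encodes a peptidyl-tRNA hydrolase built into the large subunit that can release stalled chains. It averaged 1252 ± 225 normalized counts in Pdpk1 KO libraries and 1011 ± 141 in WT libraries (SD, n = 4 each), with overlapping groups (log2 difference 0.30, limma adjusted p = 0.205). The human disease genes MRPL3 and MRPL44 had mouse counterparts with log2 differences of 0.16 (Mrpl3, limma adjusted p = 0.448) and 0.17 (Mrpl44, limma adjusted p = 0.545). Mrpl9 and Mrpl38, with log2 differences of 0.24 and 0.27, were the remaining genes with an unadjusted limma p under 0.05 (limma adjusted p = 0.186 for each).

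The genes differed far more from one another in level than between genotypes. Per kilobase of exon, mean normalized counts over the 8 libraries lay between 26.2 for Mrps10 and 1274 for Mrpl52, with a median of 309 for the large subunit and 206 for the small subunit. Mrpl52, the highest, had 1167 normalized counts per kilobase in Pdpk1 KO libraries and 1381 in WT libraries. Mrps21, the highest of the small subunit, had 1173 per kilobase in Pdpk1 KO libraries and 1288 in WT libraries, and Mrpl34 had 1139 in Pdpk1 KO libraries and 1077 in WT libraries. Lower stood Mrps24, at 650 per kilobase in Pdpk1 KO libraries and 627 in WT libraries, and Mrps12, at 565 in Pdpk1 KO libraries and 568 in WT libraries. At the low end, Mrps10 had 27.7 per kilobase in Pdpk1 KO libraries and 24.7 in WT libraries, Mrpl33 had 59.0 in Pdpk1 KO libraries and 66.6 in WT libraries, and Mrpl47 had 61.0 in Pdpk1 KO libraries and 57.1 in WT libraries. None of these genes passed the threshold (limma adjusted p between 0.498 for Mrpl52 and 0.979 for Mrps12). Exon length was the union over all annotated transcripts, so a gene with long rarely used exons has a low value on this scale.

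Mrpl52 itself (chr14:54426909-54429756, plus strand) showed how library and genotype stood to each other. It had 879, 1213, 1374 and 1709 normalized counts in Pdpk1 KO libraries, against 1054, 1431, 1865 and 1775 in WT libraries. Each genotype spanned nearly the whole range, and library 1 was the lowest in both (log2 difference -0.25 ± 0.20, SE; limma adjusted p = 0.498).

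The promoters of these genes were searched for short motifs of factors known to act on nuclear genes of mitochondrial proteins. Whether such motifs bear on the shared shifts across libraries was not tested. RefSeq windows on GRCm38.p6, 250 bases before to 50 after a start site, existed for 68 of the 77 genes (74 windows). The motifs were the palindromic NRF1 site, the ETS site CCGGAAG bound by GABP, the YY1 site AAGATGGC, the E-box CACGTG bound by Myc, the CCAAT box, the forkhead site GTAAACA bound by FoxO factors, which AKT restrains, and the TATA box TATAAA, on both strands. The letters of the ETS and YY1 sites can overlap by AAG, which occurred in 0 of the 74 windows. For comparison, the same letters were counted in the 11616 windows of tested coding genes and in all 32851 windows of the table.

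The ETS letters were found in 25 of the 74 windows (33.8%), against 18.4% of the windows of tested coding genes and 8.86% of all windows. The YY1 letters were in 12 windows (16.2%), against 4.56% of tested coding windows and 2.75% of all. The NRF1 palindrome was in 3 windows (4.05%), against 2.20% of tested coding windows and 0.971% of all. The E-box was in 7 windows (9.46%) of 5 genes, against 9.97% of tested coding windows, and the CCAAT box in 29 (39.2%), against 37.9%. The E-box and CCAAT shares, unlike those of the ETS and YY1 letters, lay close to those of tested coding genes. The NRF1 share also lay above its background but rests on 3 windows. The forkhead letters were in 2 windows, of Mrpl40 and Mrpl44 (against 2.63% of tested coding windows). The TATA box was in 5 windows (6.76%, against 6.81% of tested coding windows and 13.6% of all). ETS letters were present for 14 of 42 large-subunit genes and 11 of 26 small-subunit genes, and YY1 letters for 6 of 42 and 6 of 26. A match is a match of letters and not evidence of binding. The median GC content was 58.5% in these windows and 60.7% in those of tested coding genes.

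Of the windows shown, those of Mrps5 and Mrps18b belong to the gene past the threshold and the gene with the largest log2 difference, that of Mrpl52 to the most abundant per kilobase, and that of Mrpl32 holds the NRF1, YY1 and CCAAT letters together. Each is written 5′ to 3′ on the strand of the gene, and capitals mark the motif letters found on either strand, with ETS letters in Mrps18b and Mrpl52 and none in Mrps5. The coordinates are chr2:127587176-127587475 (plus strand) for Mrps5, chr17:35916391-35916690 (minus strand) for Mrps18b, chr14:54426659-54426958 (plus strand) for Mrpl52 and chr13:14612988-14613287 (minus strand) for Mrpl32. Most of the Mrps5 window lies downstream of the GENCODE start of the gene given above, so little sequence before that start was searched.
Mrps5: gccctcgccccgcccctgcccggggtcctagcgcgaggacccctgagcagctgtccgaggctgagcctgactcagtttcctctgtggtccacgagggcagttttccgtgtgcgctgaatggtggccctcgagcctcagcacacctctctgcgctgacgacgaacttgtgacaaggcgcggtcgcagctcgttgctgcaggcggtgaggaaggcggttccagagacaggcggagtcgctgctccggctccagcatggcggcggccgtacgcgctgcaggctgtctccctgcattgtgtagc
Mrps18b: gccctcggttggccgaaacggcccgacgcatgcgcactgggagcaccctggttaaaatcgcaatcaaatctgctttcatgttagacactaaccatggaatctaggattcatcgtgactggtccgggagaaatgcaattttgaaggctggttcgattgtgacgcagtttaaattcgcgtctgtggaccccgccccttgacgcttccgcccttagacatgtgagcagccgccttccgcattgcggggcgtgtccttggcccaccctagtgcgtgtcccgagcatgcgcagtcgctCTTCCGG
Mrpl52: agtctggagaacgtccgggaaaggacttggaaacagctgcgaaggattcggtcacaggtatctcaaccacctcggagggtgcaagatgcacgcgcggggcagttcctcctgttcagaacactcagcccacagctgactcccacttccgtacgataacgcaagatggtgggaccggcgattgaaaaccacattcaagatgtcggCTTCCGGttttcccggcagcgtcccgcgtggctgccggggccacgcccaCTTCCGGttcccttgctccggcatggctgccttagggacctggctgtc
Mrpl32: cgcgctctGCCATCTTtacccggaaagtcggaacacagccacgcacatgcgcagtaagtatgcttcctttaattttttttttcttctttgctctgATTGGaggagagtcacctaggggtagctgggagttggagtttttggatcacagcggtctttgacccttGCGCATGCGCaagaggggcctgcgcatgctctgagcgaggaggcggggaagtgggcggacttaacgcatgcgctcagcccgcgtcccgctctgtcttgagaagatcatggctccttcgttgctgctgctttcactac

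Many of these genes start back to back with a neighbour. A coding gene on the opposite strand began within 1000 bases upstream for 18 of the 77 genes (23.4%), against 10.8% of the 11388 tested coding genes. Neighbours whose start lay inside the gene were not counted, as with Mrps11, which overlaps Mrpl46. Of 17 such partners tested, 1 was higher and 0 were lower, against 4.41% higher and 5.06% lower over all genes tested. The higher one was Pnpla7, 935 bases from Mrpl41 (log2 difference 0.66, limma adjusted p = 0.00156), while Mrpl41 itself had a log2 difference of -0.017 (limma adjusted p = 0.965). The partner of Mrps5 is Zfp661 at 128 bases (log2 difference -0.25, limma adjusted p = 0.714), and that of Mrps18b is Ppp1r10 at 45 bases (0.21, limma adjusted p = 0.182). Mrps12 starts 172 bases from Sars2, which encodes a mitochondrial seryl-tRNA synthetase (log2 difference -0.21, limma adjusted p = 0.594).

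The other parts of mitochondrial gene expression were described from lists of related genes. Counts called in these short lists stand beside 4.41% higher and 5.06% lower over all genes tested, and no list was tested as a set. Of 5 structural proteins of the ribosome without an Mrp symbol, 0 were higher, 0 were lower and 5 did not pass the threshold (0 at an unadjusted limma p under 0.05, 0 with edgeR and 0 with DESeq2), with a median log2 difference of 0.19. Among them Dap3, a GTP-binding small-subunit protein, averaged 2400 ± 333 normalized counts in Pdpk1 KO libraries and 2162 ± 275 in WT libraries (SD, n = 4 each; limma adjusted p = 0.509), and Aurkaip1 averaged 1434 ± 151 in Pdpk1 KO libraries and 1503 ± 171 in WT libraries (SD, n = 4 each; limma adjusted p = 0.784). Of 26 assembly factors, 2 were higher, 0 were lower and 24 did not pass, with a median log2 difference of -0.0097. The GTPase gene Noa1 averaged 1132 ± 190 normalized counts in Pdpk1 KO libraries and 766 ± 106 in WT libraries (SD, n = 4 each; log2 difference 0.56 ± 0.14, SE; limma adjusted p = 0.0196). Rbfa, which encodes a factor that matures the small-subunit RNA, averaged 665 ± 76.8 in Pdpk1 KO libraries and 460 ± 61.9 in WT libraries (SD, n = 4 each; log2 difference 0.53 ± 0.14, SE; limma adjusted p = 0.0264).

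Of 15 tested translation factors, 0 were higher and 0 lower (2 at an unadjusted limma p under 0.05, 0 with edgeR and 0 with DESeq2), with a median log2 difference of -0.050. Tufm, the elongation factor that delivers charged tRNA, had a log2 difference of -0.019 (limma adjusted p = 0.95), and Lrpprc, which stabilises mitochondrial mRNA, one of 0.25 with groups that did not overlap (limma adjusted p = 0.124). Of 20 genes that charge mitochondrial tRNA, 2 were higher, 1 was lower and 17 did not pass. Tars2, the threonyl-tRNA synthetase, averaged 2208 ± 156 normalized counts in Pdpk1 KO libraries and 1652 ± 66.0 in WT libraries (SD, n = 4 each; log2 difference 0.42, limma adjusted p = 0.00833). Gatc, a subunit of the amidotransferase that makes glutaminyl-tRNA, had a log2 difference of 0.54 (limma adjusted p = 0.0229), and Cars2, the cysteinyl-tRNA synthetase, one of -0.46 (limma adjusted p = 0.0464).

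Of 14 genes of mitochondrial transcription and RNA processing, 1 was higher, 0 were lower and 13 did not pass, and 13 of the 14 log2 differences were above 0 (median 0.18). The higher one was Tefm, the elongation factor of the mitochondrial RNA polymerase. It had 263, 208, 283 and 221 normalized counts in Pdpk1 KO libraries, against 168, 107, 131 and 124 in WT libraries, with no overlap (log2 difference 0.88 ± 0.21, SE; limma adjusted p = 0.0146). Of 9 tested regulators of mitochondrial biogenesis, 1 was higher, 1 was lower and 7 did not pass. Myc, a factor that drives ribosome production and growth, averaged 8809 ± 822 normalized counts in Pdpk1 KO libraries and 3753 ± 150 in WT libraries (SD, n = 4 each; log2 difference 1.23 ± 0.091, SE; limma adjusted p = 1.27e-06). Esrra, a nuclear receptor that acts on genes of oxidative metabolism, averaged 757 ± 56.7 normalized counts in Pdpk1 KO libraries and 1007 ± 106 in WT libraries (SD, n = 4 each; log2 difference -0.41 ± 0.12, SE; limma adjusted p = 0.0368). The genes of the factors whose motifs were searched had log2 differences of 0.056 (Nrf1), 0.11 (Gabpa), -0.068 (Gabpb1) and 0.056 (Yy1), none past the threshold in limma.

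The mitochondrial mRNAs that this ribosome translates did not pass the threshold either. Of 13 such genes 11 were tested, with 0 higher and 0 lower (0 at an unadjusted limma p under 0.05, 0 with edgeR and 0 with DESeq2), a median log2 difference of 0.055 and a range of -0.082 to 0.29. The log2 difference was 0.079 for mt-Co1 (limma adjusted p = 0.841) and 0.10 for mt-Cytb (limma adjusted p = 0.792). Of the related genes past the threshold, Myc kept its call under all 16 alternatives. Noa1, Rbfa, Tars2, Gatc, Cars2, Tefm and Esrra lost theirs without the 3 libraries highest in macrophage markers (limma adjusted p between 0.0976 for Noa1 and 0.332 for Esrra), with log2 differences between -0.42 (Cars2) and 0.79 (Tefm). That fit held fewer libraries, and its calls over all genes fell too, as given further below. Whether the lost calls follow macrophage content or the smaller number of libraries was not tested. Leaving out a single library ended the call for Noa1 (without Pdpk1 KO library 2 or WT library 4), Rbfa (without Pdpk1 KO library 1 or 2 or WT library 4), Tefm (without Pdpk1 KO library 3), Gatc (without Pdpk1 KO library 1 or 3 or WT library 2, 3 or 4), Esrra (without library 2, 3 or 4 of either genotype) and Cars2 (without any library but Pdpk1 KO library 4). Tars2 kept its call in all 8 such fits.

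**Figure D5:**
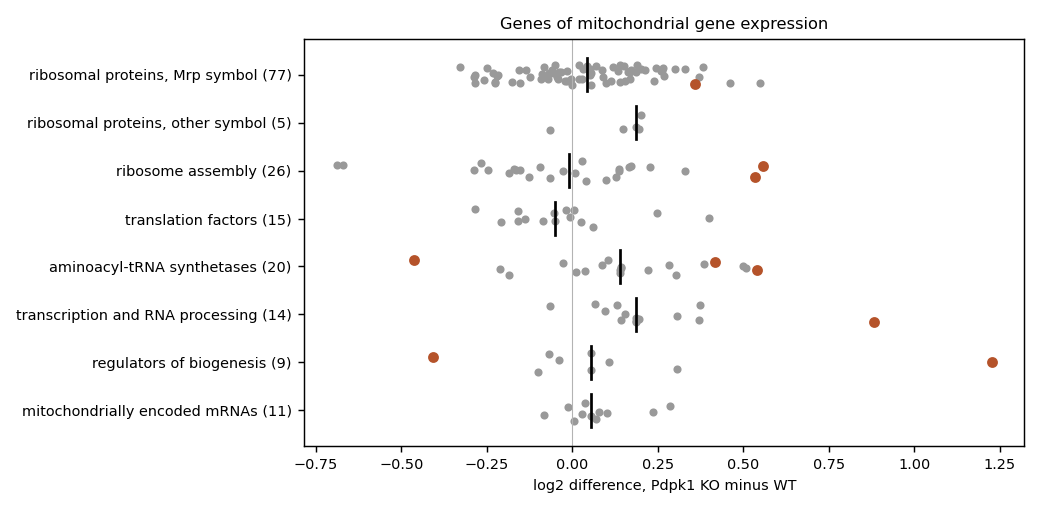
Log2 difference, Pdpk1 KO minus WT, of each tested gene (points, spread vertically for legibility) in lists of genes of mitochondrial gene expression, with the number tested in brackets, the list's median as a black line and genes past the limma threshold in orange. Myc at 1.23 and Tefm at 0.88 lie farthest to the right, and the ribosomal proteins with an Mrp symbol lie between -0.33 and 0.55.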

How the data were processed

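Polyadenylated RNA of 8 sorted Treg libraries, 4 Pdpk1 KO and 4 WT, was purified (RNeasy Plus Micro) and prepared for sequencing (NEBNext Ultra II), per the labels' protocols. Per the submitters' processing notes, the build was GRCm38 and the tools were DESeq2 1.21, featureCounts in Subread 2.0.1, SAMtools 1.11, STAR 2.7.6a and Trimmomatic 0.39. The strand setting and annotation are not given in the sources used here. The deposited table holds 1 signal per gene and library, which is the authors' gene read count after division by a library size factor of DESeq2, called a normalized count in the text. Within a tolerance of 0.001, 100% of a library's values were whole multiples of its smallest value above 0, so whole reads and depth were recovered. Intervals and floors cover counting error only where they rest on reads.

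Symbols, positions and exon lengths were taken from GENCODE M21, which matched 19775 of 19826 gene IDs. Genes with a normalized count of at least 10 in at least 4 of 8 libraries were tested on log2(normalized count + 1), a scale that understates changes of low genes, with limma 3.58.1 (trend, R 4.3.3), two-sided, Benjamini-Hochberg adjusted over 13847 genes at 0.05. No replicate term was used. Single values were compared by an exact permutation test. Alternatives were a pseudocount of 5, no filter, quantile normalization, edgeR 4.0.16 (quasi-likelihood, TMM) and DESeq2 1.42.0 on recovered reads, each library left out in turn, a replicate block, and the mean of macrophage markers as a covariate. A fit without the 3 libraries highest in those markers was added after the data had been seen. Of the tests across genes, limma in its plain form, edgeR and DESeq2 were also tried on simulated data with known changes. The block, covariate, quantile and leave-out fits were not tried in that way.

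The set of genes and all gene lists were chosen with earlier results of these data known. Named genes were those past the threshold, those with the largest and smallest levels per kilobase and the largest log2 differences in each subunit, the genes placed outside the subunit of their symbol, the Mrps18 paralogs, and of each related list up to 4 genes past the threshold or the 2 most abundant. Mrpl3, Mrpl9, Mrpl10, Mrpl11, Mrpl17, Mrpl18, Mrpl21, Mrpl22, Mrpl23-ps1, Mrpl24, Mrpl38, Mrpl41, Mrpl44, Mrpl45, Mrps16, Mrps22, Mrps35, Il2ra, Ikzf2, the genes of the factors whose motifs were searched, and the genes named for their promoters or neighbours were chosen after their values had been seen. Motifs were searched as exact letters in RefSeq promoter windows. Library numbers were not taken as pairs. No 2 libraries of 1 genotype agreed within counting noise (chi-square per degree of freedom 14.8 or more).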

Additional observations from a re-analysis of the deposited data

Results flagged for a closer look

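Among 92 groups of 4 values examined (the named genes in each genotype), 7 had a single library set apart from the other 3 by Dixon's test at its 95% critical value, where chance would set apart about 1 group in 20. In Pdpk1 KO, library 1 was low for Mrpl24 (1555 normalized counts, against 1779 to 1813 in the others), for Mrps18a (517.7, against 626 to 637) and for Mrps28 (301.7, against 375 to 377). Library 3 of Pdpk1 KO was low for Mrpl3 (903, against 1103 to 1141) and for Esrra (672.5, against 778 to 794). In WT, library 4 was high for Mrpl3 (1104, against 894 to 915) and for Mrpl11 (573, against 473 to 479). Library 1 of Pdpk1 KO is also the library with the lowest median level of these genes in its group, and a cause was not tested.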

How the results depend on the processing

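The count of genes called lower was 0 under all 16 alternatives, and the count called higher was 1 with a pseudocount of 5, without a filter, with quantile normalization and with edgeR. It was 2 with DESeq2 (Mrps5 and Mrpl48), 4 with the replicate block (Mrps5, Mrpl23, Mrpl24 and Mrpl48), 0 with the macrophage marker covariate and 0 without the 3 libraries highest in those markers. Leaving out 1 library gave between 0 and 3 genes: 3 without Pdpk1 KO library 1 (Mrps5, Mrpl23 and Mrpl48) and 0 without each of the other 7. The share of all genes called without Pdpk1 KO library 1 is not given here, so those 3 have no background to stand beside. Mrps5 had a log2 difference between 0.27 and 0.39 and passed in 7 of the 16. Over all genes the block raised the counts to 1243 higher and 1292 lower, against 611 and 700 without it. Deviations from the group means of same-numbered libraries correlated at 0.217, 0.0921, 0.0481 and 0.113, and 3 of the 4 Pdpk1 KO libraries correlated best with their own number. Whether libraries numbered alike were handled together was not given in the sources used here, and a pairing was not tested. The main fit has no term for such a factor. The covariate left 210 and 284, and the fit without those 3 libraries left 167 and 305. With a library left out, the count higher over all genes was lowest at 389 (without WT library 4) and 395 (without Pdpk1 KO library 3). The median log2 difference of the 77 genes lay between -0.0097 (without WT library 1) and 0.080 (without Pdpk1 KO library 1) over the alternatives, and the large-minus-small difference between -0.050 and 0.046, both within the spread between libraries. The cause of these shifts was not tested.

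Of all 77 genes, 17 changed sign with the covariate, among them Mrpl17 (0.00071, against -0.23) and Mrpl21 (-0.16, against 0.25), and 15 without the 3 libraries, among them Mrps35 (-0.028, against 0.20). Quantile normalization turned 5, edgeR 2 and DESeq2 2, and leaving out 1 library turned 4 to 11, all with differences under 0.2. Among the named genes, leaving out 1 library gave ranges of -0.054 to 0.11 (Mrpl10), -0.032 to 0.12 (Mrpl11), -0.0080 to 0.21 (Mrpl34), -0.019 to 0.14 (Mrpl45), -0.042 to 0.16 (Mrpl47), -0.24 to 0.21 (Mrps12), -0.25 to 0.11 (Mrps18c), -0.16 to 0.037 (Mrps22), -0.070 to 0.19 (Mrps24), -0.13 to 0.0016 (Aurkaip1), -0.14 to 0.059 (Tufm), -0.012 to 0.15 (mt-Co1), -0.013 to 0.24 (mt-Cytb) and -0.0092 to 0.17 (Foxp3). Quantile normalization gave 0.015 (Mrps12), 0.0031 (Mrps18c), 0.060 (Mrps22) and -0.084 (mt-Cytb). The covariate gave -0.0033 (Mrpl12), -0.19 (Mrpl44), -0.00018 (Mrpl47), -0.062 (Mrps24), -0.19 (Mrps30), -0.017 (Dap3), -0.12 (mt-Co1) and -0.17 (mt-Cytb). Without the 3 libraries the values were -0.065 (Mrpl10), -0.092 (Mrpl45), 0.025 (Mrps22), -0.18 (Mrps24), -0.055 (mt-Co1) and -0.090 (mt-Cytb).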
